A study of Mus musculus with 16 samples.

Results

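The gene set described here holds 10 mouse genes of serine synthesis and of the stress response governed by the transcription factor ATF4. The members are Phgdh, Psat1, Psph, Shmt2, Mthfd2, Asns, Atf4, Atf5, Ddit3 and Trib3, and they were chosen by name with earlier results of these data known, 10 of the 11631 genes in the deposited gene table. The value that drew the choice was the level of Psat1 in DM-HFD cells exposed to linagliptin. Every value of the members in the comparison of linagliptin with vehicle in DM-HFD cells is therefore given as a description with no test, and so is Psat1 wherever those same libraries enter. All 10 members had a row in the gene table, and together they had 19 of the 23055 rows in the transcript table.

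The study sequenced poly(A) RNA of primary cultured adult cardiomyocytes, the contracting muscle cells of the heart, from C57BL/6 mice. Control cells came from mice aged approximately 8 weeks and gave 5 libraries with vehicle (0.1% DMSO) and 5 with linagliptin. DM-HFD cells came from mice fed a high fat diet for 26 weeks and injected with streptozotocin, a toxin of the insulin-secreting beta cells, after 12 weeks of that diet, and gave 3 libraries with vehicle and 3 with linagliptin. Linagliptin, an inhibitor of the peptidase DPP-4, was given at 9 nmol/L, and both exposures lasted 24 h. Age, diet and streptozotocin differ together between control and DM-HFD cells and cannot be told apart, and nothing in the sources used here says whether cells of both kinds of mice were isolated or sequenced together. Values are FPKM, a unit that scales fragments to transcript length and to the library's total and holds no depth, so no counting error can be given. In such bulk samples fewer cells of a type and less RNA per cell cannot be told apart.

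Serine is made from the glycolytic intermediate 3-phosphoglycerate in 3 steps, catalysed in turn by PHGDH, PSAT1 and PSPH. SHMT2 then passes a carbon unit of serine to folate inside mitochondria, and MTHFD2 oxidises that unit on the way to formate. When kinases phosphorylate the translation factor eIF2, general protein synthesis falls while translation of the Atf4 messenger rises, and ATF4 switches on genes of amino acid supply, among them the enzymes above and Asns, which makes asparagine. Atf5 encodes a related factor tied to mitochondrial protein stress. Ddit3 encodes CHOP, a factor induced by stress of the endoplasmic reticulum (ER), and Trib3 encodes a pseudokinase that restrains ATF4 and CHOP. In the heart and skeletal muscle this response is known for following mitochondrial damage. Since Atf4 is controlled largely at translation, its RNA level is not a measure of ATF4 protein.

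On the GRCm38 build as the table gives it, the serine synthesis genes lie on separate chromosomes, Phgdh (ENSMUSG00000053398.11) at chr3:98313170-98339990, Psat1 (ENSMUSG00000024640.9) at chr19:15904678-15947337 and Psph (ENSMUSG00000029446.14) at chr5:129765558-129787449, all on the minus strand. Shmt2 (chr10:127517123-127522444) and Ddit3 (chr10:127290774-127296288) both lie on chromosome 10, and Mthfd2 (chr6:83305691-83325908) and Asns (chr6:7675169-7693254) share chromosome 6. Atf4 (chr15:80255184-80257540), Atf5 (chr7:44812256-44816658) and Trib3 (chr2:152337422-152344032) complete the set. In the GENCODE M21 annotation no other gene overlaps Phgdh, Asns, Atf4 or Trib3. Psat1 overlaps a processed pseudogene on the other strand, Psph overlaps Cct6a, Shmt2 overlaps Ndufa4l2, Atf5 overlaps Nup62 and Il4i1, and Ddit3 overlaps Mars, so that values of these 5 genes may hold reads of a partner if strand was not used in counting. Mthfd2 overlaps a locus of uncertain status on its own strand, so its reads may be shared whether or not strand was used.

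ATF4 pairs with C/EBP factors on a composite DNA element, and its core TGATGNAA was sought on both strands in the RefSeq promoters of the members, each running from 250 bases before the start to 50 after it on GRCm38.p6. The members had 12 such promoters, with 2 each for Psat1 and Atf5, and 2 of the 12 held the core, against 3.97% of all 32851 promoters. The ER stress element, which is CCAAT followed by any 9 bases and CCACG, was in 0 of the 12 and in 0.119% of all. Both promoter stretches that held the core are shown because they carry the recognised letters of the factor the set is named for, with the core in capitals. The Asns stretch is chr6:7693214-7693243 and the core begins 23 bases before the RefSeq start at position 7693209. The deposited table starts the transcript Asns-201 further upstream, at 7693254, so by that start the core lies inside the first exon. The Trib3 stretch is chr2:152344028-152344057, both genes being on the minus strand, and the core begins at base 15 after the RefSeq start and reads on the opposite strand. The deposited transcript Trib3-201 starts further downstream, at 152344032, so by that start the core lies before the transcript.
Asns: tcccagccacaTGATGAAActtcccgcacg
Trib3: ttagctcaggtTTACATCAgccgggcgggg
A match describes the letters in the window only.

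**Figure D1:**
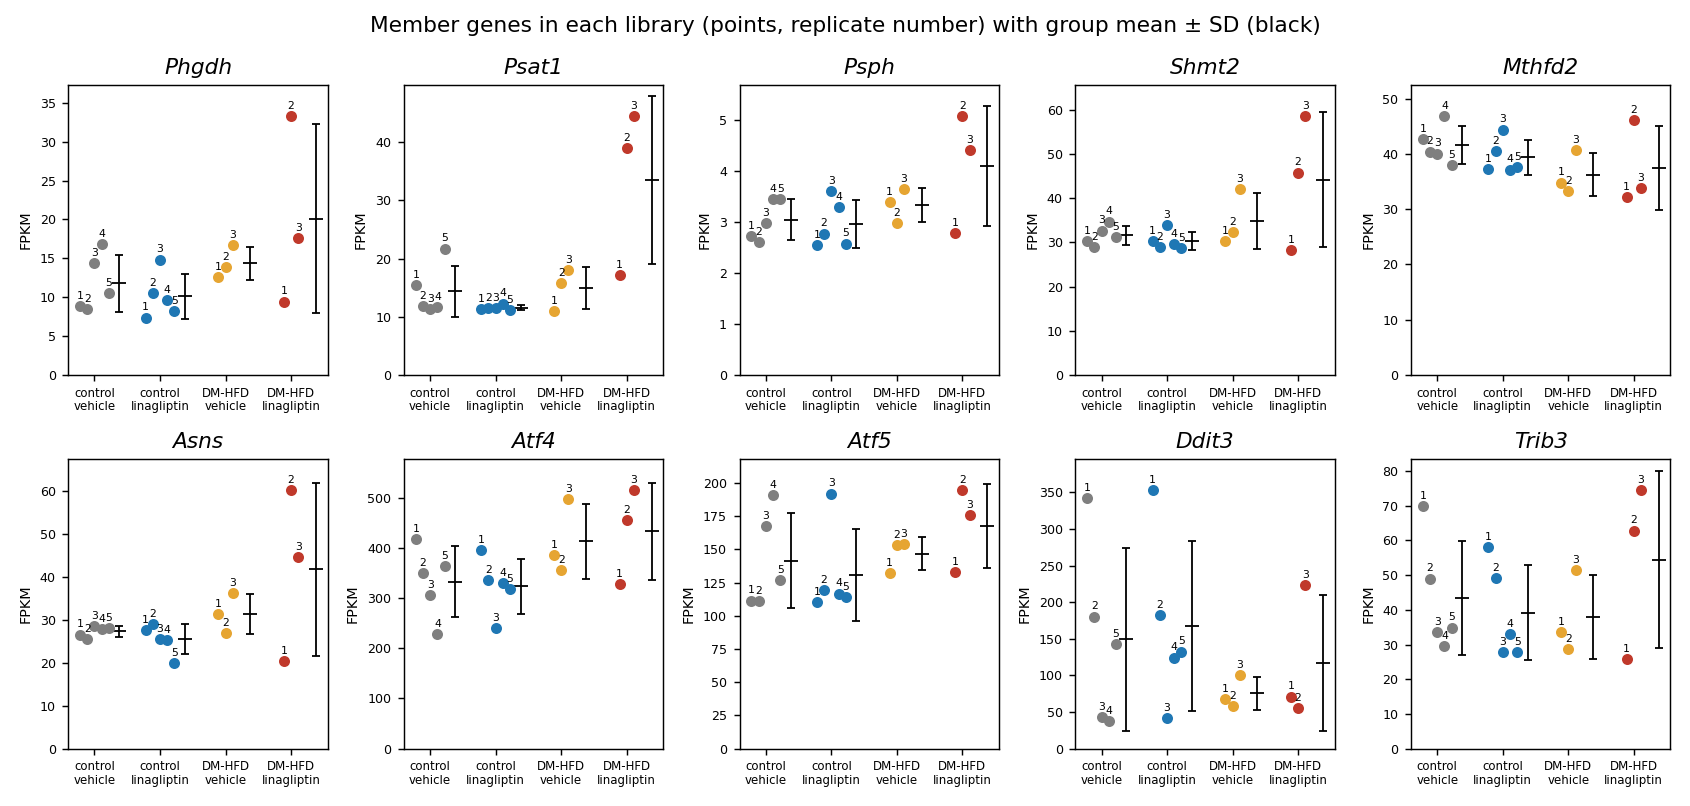
FPKM of the 10 member genes in each of the 16 libraries, with the replicate number above each point and the mean ± SD of each group in black. In DM-HFD cells with linagliptin Psat1 stood at 17.2, 39.0 and 44.5 FPKM, against 11.2 to 12.3 FPKM in control cells with linagliptin, and Ddit3 spanned 37.8 to 354 FPKM over all libraries.

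Levels per length differed widely among the members. Atf4 was the highest with a mean of 363 FPKM over the 16 libraries, and Atf5 and Ddit3 followed at 144 and 135 FPKM. Trib3 (43.1 FPKM), Mthfd2 (39.1), Shmt2 (34.2) and Asns (30.2) formed a middle tier, and the 3 serine synthesis enzymes were the lowest, Psat1 at 17.2, Phgdh at 13.3 and Psph at 3.27 FPKM. All 10 members passed the minimum of a mean of 0.5 FPKM in every comparison. The spread over the 16 libraries also differed, since the highest library was 9.36 times the lowest for Ddit3, 4.52 times for Phgdh and 4.03 times for Psat1, but 1.45 times for Mthfd2.

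Several libraries stood apart before any comparison was made. Among control cells, vehicle replicates 3 and 4 and linagliptin replicate 3 lay at the positive end of the first principal component, which held 42.0% of the variance of the 10 control libraries, while the other 7 lay at the negative end. Among DM-HFD cells with linagliptin, replicate 1 was lower than replicates 2 and 3 in 9 of the members, and replicate 2 was lower in Ddit3. The summed FPKM of macrophage and leukocyte markers was 59.6 to 85.2 in control libraries and 67.7 to 276 in DM-HFD libraries, with all 11 markers in the table above 0 in each group. The summed FPKM of 10 cardiomyocyte markers was 6267 to 6929 in control libraries and 3992 to 7448 in DM-HFD libraries. The lowest was DM-HFD linagliptin replicate 2, against 7364 and 7448 in the others of its group. That library had 437 FPKM of red cell markers, at most 84.0 elsewhere, and 92.9 of fibroblast markers, and was the highest of its group in Phgdh, Psph, Mthfd2, Asns and Atf5. GC-rich transcripts were relatively higher in DM-HFD libraries, by 0.09 to 0.74 log2 units per 10 percentage points of GC content against the mean of control vehicle, while the control libraries lay between -0.11 and 0.05. Mitochondrially encoded transcripts made up 26.5% to 52.2% of the summed FPKM in DM-HFD libraries and 33.1% to 40.0% in control libraries. The part of these differences in the values of the members was not tested beyond the alternatives given with each comparison.

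Psat1, the transaminase of the second step, was level in control cells with linagliptin and most variable in DM-HFD cells with linagliptin. In control cells with linagliptin its FPKM was 11.3, 11.5, 11.5, 12.3 and 11.2, a mean of 11.5 ± 0.425 (SD, n = 5). In control cells with vehicle it was 15.4, 11.8, 11.4, 11.7 and 21.7 (14.4 ± 4.40, n = 5), so that replicates 5 and 1 stood above the rest. In DM-HFD cells with vehicle it was 11.0, 15.7 and 18.0 FPKM (14.9 ± 3.57, n = 3), within the range of control cells with vehicle but for replicate 1, which was just below it. In DM-HFD cells with linagliptin it was 17.2, 39.0 and 44.5 FPKM (33.6 ± 14.5, n = 3), and its lowest library was below the highest vehicle library. In order of level the groups ran from control linagliptin through control vehicle and DM-HFD vehicle to DM-HFD linagliptin, and each neighbouring pair in that order overlapped in its libraries.

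PHGDH commits carbon to serine, and its gene varied most within DM-HFD cells with linagliptin, at 9.43, 33.3 and 17.6 FPKM. With vehicle DM-HFD cells gave 12.5, 13.9 and 16.7 FPKM. Control cells gave 8.87, 8.45, 14.3, 16.8 and 10.5 FPKM with vehicle and 7.38, 10.6, 14.8, 9.64 and 8.22 FPKM with linagliptin, so that the 3 highest control libraries were those that stood apart above. Psph, whose enzyme releases free serine, was low throughout, from 2.55 to 3.60 FPKM in control cells, 2.98 to 3.64 in DM-HFD cells with vehicle and 2.79 to 5.08 in DM-HFD cells with linagliptin.

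With linagliptin the DM-HFD libraries ran in the same order for Shmt2 as for Psat1, and for Asns as for Phgdh. Shmt2 was 28.3, 45.8 and 58.6 FPKM in DM-HFD cells with linagliptin and 30.2, 32.3 and 42.0 with vehicle, against 28.7 to 34.7 FPKM in all 10 control libraries. Asns was 20.3, 60.3 and 44.5 FPKM with linagliptin and 31.3, 26.9 and 36.2 with vehicle in DM-HFD cells, against 19.8 to 28.9 FPKM in control libraries. Both genes had replicate 1 with linagliptin at or near the bottom of their whole range and replicates 2 and 3 at the top. Mthfd2 shared this only in part, with 32.3, 46.2 and 33.9 FPKM in DM-HFD cells with linagliptin, 34.8, 33.3 and 40.7 with vehicle, and 37.2 to 46.9 in control libraries. With linagliptin its DM-HFD libraries ran in the order of Asns, and replicate 1 was the lowest of all libraries. Replicate 3, however, lay below every control library.

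The transcription factors and Trib3 varied mostly from library to library. Atf4 was 417, 349, 305, 228 and 364 FPKM in control cells with vehicle, 395, 335, 241, 329 and 317 with linagliptin, 385, 356 and 496 in DM-HFD cells with vehicle and 327, 456 and 515 with linagliptin. All 4 groups overlapped. Ddit3 was 342, 180, 42.8, 37.8 and 143 FPKM in control cells with vehicle and 354, 183, 41.3, 124 and 133 with linagliptin, in DM-HFD cells 68.0, 57.7 and 100.4 with vehicle and 71.2, 55.4 and 223 with linagliptin. Its 3 lowest libraries were again the control libraries that stood apart. Trib3 ranged from 27.7 to 69.8 FPKM in control cells, highest in replicate 1 of both exposures, and from 25.9 to 74.6 in DM-HFD cells. Atf5 ranged from 110 to 192 FPKM in control cells, highest in the 3 libraries lowest in Ddit3, and from 132 to 195 in DM-HFD cells.

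The first comparison asked how DM-HFD cells differ from control cells under vehicle, and 0 of the 10 members passed limma's moderated test at an adjusted p under 0.05, against 31.3% of the 11359 genes tested (Benjamini-Hochberg over all of them). At an unadjusted p under 0.05 the count was 0 members as well, against 42.4% (4817) of the genes. The log2 fold changes, DM-HFD minus control on log2(FPKM + 1), were 0.30 for Phgdh, 0.06 for Psat1, 0.10 for Psph, 0.13 for Shmt2, -0.20 for Mthfd2 and 0.19 for Asns, with standard errors of 0.12 to 0.22. Atf4 had 0.32 ± 0.19 (SE) with an adjusted p of 0.232 from limma, Atf5 0.08, Trib3 -0.16 and Ddit3 -0.55 ± 0.64. The member median was 0.09 and the median of all genes tested was -0.20, with 9 of the 10 members above that median. Most members lie above the middle of all genes in GC content, and GC-rich transcripts were relatively higher in DM-HFD libraries. The part of GC content in the member median was not tested. Libraries of the groups did not overlap for 0 members, against 33.3% of genes. The calls moved with scaling, as Shmt2 (0.39) and Asns (0.45) passed under median-of-ratios scaling, which brought the median of all genes to 0.00, Psph (0.41) under quantile scaling, Asns (0.43) with the trend in GC content removed and Mthfd2 (-0.46) as TPM. Without the 3 control libraries that stood apart, in this comparison vehicle replicates 3 and 4, Phgdh passed at 0.58 and Ddit3 at -1.48. This alternative was chosen after seeing the data. Those replicates were the highest of their group in Phgdh and the lowest in Ddit3, so leaving them out moves both values this way. The calls are therefore no separate test. In that fit 186 of 11332 genes were called higher and 2445 lower.

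The second comparison set DM-HFD against control cells under linagliptin. Of the 9 members other than Psat1, 0 passed at an adjusted p under 0.05, against 26.6% of the 11555 genes tested, and 2 passed at an unadjusted p under 0.05, against 42.7% (4938) of those genes. These were Phgdh, with a log2 fold change of 0.79 ± 0.34 (SE) and a limma adjusted p of 0.107, and Shmt2, with 0.47 ± 0.21 and 0.109. The further values were 0.57 for Asns, 0.41 for Atf4, 0.40 for Trib3, 0.38 for Atf5, 0.34 for Psph, -0.09 for Mthfd2 and -0.48 for Ddit3, with limma adjusted p from 0.134 to 0.678. Their median was 0.40 and that of all genes -0.06. Psat1, given here with no test, had the largest value of the set, 1.36 ± 0.26, and its mean in DM-HFD cells was 2.91 times that in control cells. It was the 1 member whose groups did not overlap, 17.2 FPKM at the lowest against 12.3 at the highest, where 28.0% of all genes did not overlap.

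Replicate 1 of DM-HFD cells with linagliptin bore on nearly every value of that comparison. Without it 6 of the 9 members passed. These were Phgdh at 1.22, Asns at 1.01, Trib3 at 0.86, Shmt2 at 0.76, Atf4 at 0.60 and Psph at 0.54 on the log2 scale. The number of all genes called rose at the same time from 3069 to 5796, so calls rose over the whole table as well. Of the 11560 genes then tested 2357 were called higher and 3439 lower, against 540 and 2529 before. The 6 members were all higher. Only replicates 2 and 3 of DM-HFD cells with linagliptin remained in that fit. They are the libraries highest in Psat1, whose level in this group drew the choice of members. Replicate 1 was also the lowest of its group in each of the 6 members. These calls are therefore no separate test of the set. Without control linagliptin replicate 3, Atf5 passed at 0.52. That library was the highest of its group in Atf5, so this call is no separate test. Psph passed under quantile scaling, at 0.54. Without DM-HFD linagliptin replicate 2 or 3 the genes called fell to 1994 and 106, and without control linagliptin replicate 2 or 5 to 1637 and 1864, with 0 of the 9 members called in each case. For Psat1 the value lay between 1.11 and 1.77 over all 23 alternatives tried. Removing the trend with GC content raised it to 1.54, and the Psat1 transcript, at 48.4% GC, was above 38.6% of the genes in GC content. Psat1 was the lowest member by this measure. The others were at 97.8% (Atf5), 89.4% (Trib3), 86.0% (Shmt2), 85.3% (Phgdh), 76.1% (Ddit3), 69.4% (Atf4), 66.9% (Psph), 45.4% (Mthfd2) and 40.1% (Asns). The part of GC content in the member median of 0.40 was not tested.

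**Figure D2:**
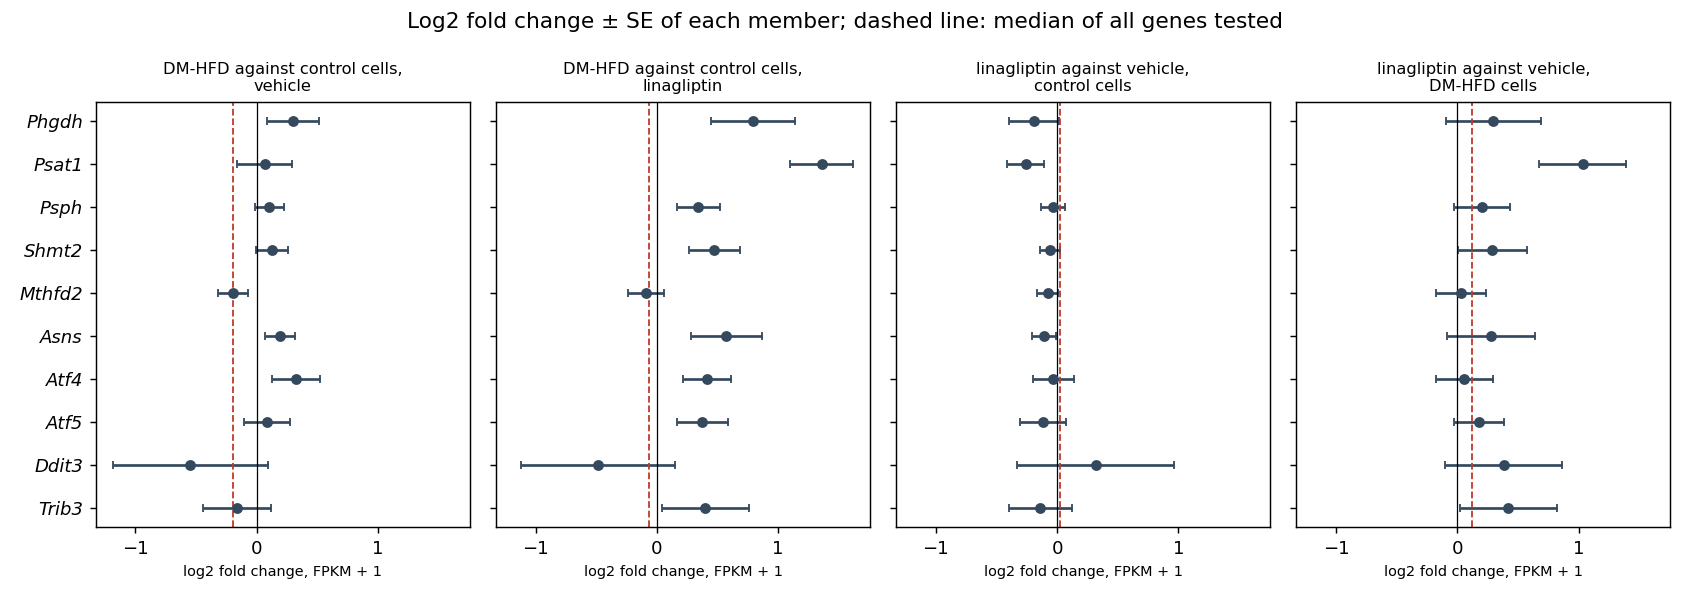
Log2 fold change of each member on log2(FPKM + 1) in the 4 comparisons, points with standard errors, with the median of all genes tested as a dashed line. Psat1 stands at 1.36 between DM-HFD and control cells under linagliptin and at 1.04 between linagliptin and vehicle in DM-HFD cells, and at 0.06 and -0.26 in the other 2 comparisons.

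The third comparison asked what linagliptin does in control cells. Where a call needs a 1.5-fold change or more and an unadjusted p up to 0.05, as the study set it, 0 of the 10 members were called, against 0.220% of 11365 genes. At an adjusted p under 0.05 limma called 0 members and 0% of all genes, of which 455 passed at an unadjusted p under 0.05, with 0 members among them. Fits with Ballgown's model, or with no moderation, called 0 members too at the study's limits. The log2 fold changes, linagliptin minus vehicle, were below 0 for 9 members and ran from -0.26 ± 0.15 (SE) for Psat1 to -0.03 for Atf4, with the exception of Ddit3 at 0.32 ± 0.65. Of all genes 57.2% were above 0, their median was 0.02, and 1 member was above that median. All 10 had a limma adjusted p of 0.997. Libraries with and without linagliptin overlapped for every member, where 0.757% of genes did not overlap. The value for Psat1 rested largely on vehicle replicate 5, without which it was -0.11, and Ddit3 was -0.19 without the 3 control libraries that stood apart.

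In DM-HFD cells linagliptin against vehicle is the comparison that the choice of members used, so its values are description. In the limma fit all 10 members had a log2 fold change above 0, as did 74.8% of the 11127 genes tested. Psat1 had 1.04 ± 0.36 (SE), and a ratio of means of 2.25. Over all genes 0.656% were past the thresholds of the study, and 1.16% (129) had an unadjusted p under 0.05. At an adjusted p under 0.05 limma called 0 genes. No call is given for a member. The next values were 0.42 for Trib3, 0.38 for Ddit3, 0.30 for Phgdh, 0.29 for Shmt2, 0.28 for Asns and 0.21 for Psph, followed by 0.18 for Atf5, 0.06 for Atf4 and 0.03 for Mthfd2, beside a median of all genes of 0.12. For each member the libraries overlapped, where 6.28% of genes did not. The size for Psat1 was 1.45 without linagliptin replicate 1, 0.88 without replicate 2 and 0.78 without replicate 3, and 0.94 with the trend in GC content removed. Under the model of Ballgown, which adds a covariate for the level of each library, it was 0.49, and 8 of the members then lay below 0, Psat1 and Ddit3 (0.96) being the exceptions.

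The response to linagliptin in DM-HFD cells minus that in control cells holds the same libraries and is likewise description. It was 1.29 ± 0.37 (SE) for Psat1 on the log2 scale, DM-HFD minus control. For the other 9 members it ranged from 0.06 for Ddit3 to 0.56 for Trib3, with standard errors from 0.18 for Mthfd2 to 1.00 for Ddit3. Without DM-HFD linagliptin replicate 1 it was 1.70 for Psat1.

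**Figure D3:**
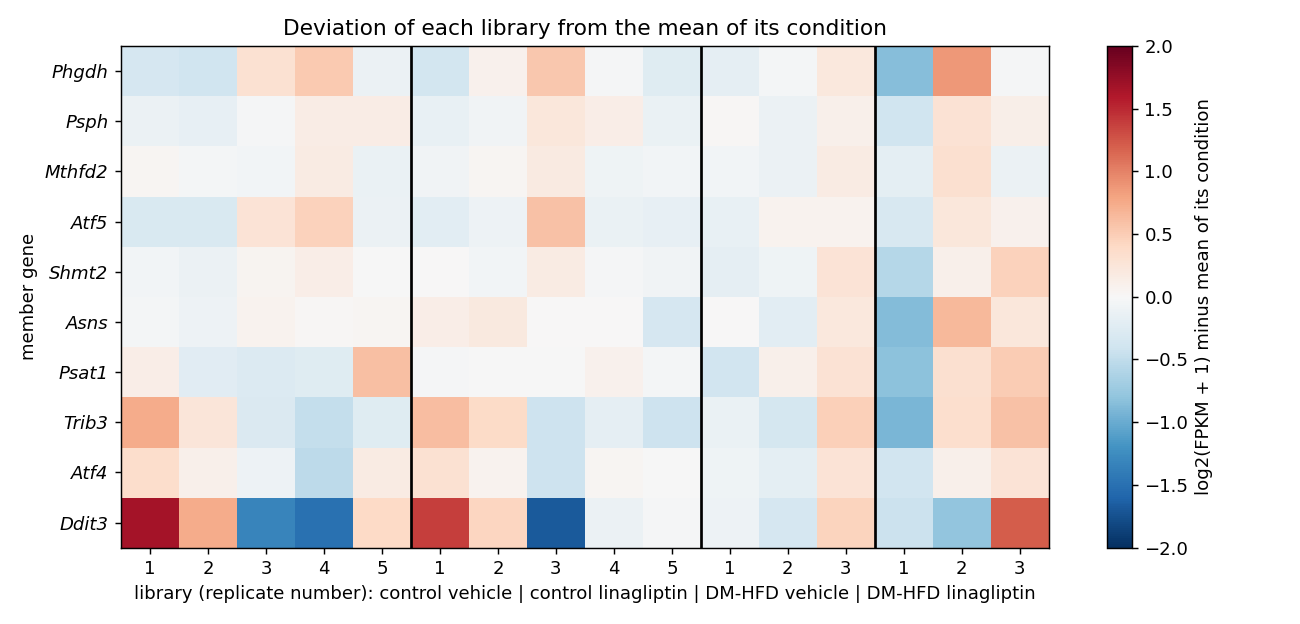
Deviation of log2(FPKM + 1) in each library from the mean of its condition, members in rows and the 16 libraries in columns, red above and blue below. Ddit3 is blue in control vehicle replicates 3 and 4 and control linagliptin replicate 3 where Phgdh and Atf5 are red, and in DM-HFD linagliptin replicate 1 all 10 members are blue.

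Within conditions not all members moved together. After the mean of each condition was subtracted, Atf4, Ddit3 and Trib3 followed each other over the 16 libraries, with Pearson r of 0.85 for Atf4 and Ddit3, 0.86 for Atf4 and Trib3 and 0.73 for Ddit3 and Trib3. Phgdh, Psph, Mthfd2 and Atf5 formed a second group, with r from 0.61 to 0.86. Of the 12 pairs between the groups, 8 had r below 0 and 4 above, from -0.75 for Atf5 and Ddit3 to 0.25 for Mthfd2 and Trib3. Ddit3 was below 0 with each member of the second group, at -0.58 with Phgdh, -0.36 with Mthfd2 and -0.34 with Psph. Both groups were read from these same correlations. Psat1, Shmt2 and Asns, outside both, had r above 0 with every other member, from 0.04 for Shmt2 and Ddit3 to 0.78 for Psph and Asns. These correlations describe libraries that share conditions, culture and processing, and the libraries that stood apart carry part of them.

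The values differed between control and DM-HFD libraries, a difference that was not tested. Over the 10 control libraries all 12 pairs between the groups were below 0, from -0.92 to -0.18, and over the 6 DM-HFD libraries 10 were above 0, from -0.27 to 0.91 over the 12. In control libraries r was -0.92 for Atf5 and Ddit3, -0.91 for Atf4 and Atf5 and -0.89 for Phgdh and Atf4. In DM-HFD libraries the same pairs had 0.11, 0.71 and 0.65. For Psat1 the difference varied with the partner. Its r with Shmt2 was -0.17 in control and 0.95 in DM-HFD libraries, with Trib3 0.08 and 0.90, and with Ddit3 0.37 and 0.47. Psat1 spanned only 11.2 to 12.3 FPKM in control cells with linagliptin. The DM-HFD values of r hold the libraries whose Psat1 level drew the choice of members.

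Ddit3 moved with ER chaperone genes, which were looked at after its values were seen. The gene nearest to it over the 16 libraries was Pdia4, a disulfide isomerase of the ER, with r of 0.98, and Calr, Creld2, Hyou1 and Sdf2l1 followed at 0.97 to 0.98. Pdia4 was 427, 199, 30.6, 25.2 and 161 FPKM in control cells with vehicle and 382, 184, 22.3, 151 and 144 with linagliptin. Thus the same 3 control libraries were lowest in Pdia4 and Ddit3 and the same pair of replicates 1 was highest. In DM-HFD cells Pdia4 was 63.2, 62.2 and 137 FPKM with vehicle and 110, 42.5 and 291 with linagliptin. The nearest gene to Atf4 was Pdia5, also a disulfide isomerase of the ER, at 0.95, and Pdia5 was second for Trib3 at 0.91 after the stress protein gene Sesn2 at 0.94. For Atf5 the nearest was Grina at 0.95.

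**Figure D4:**
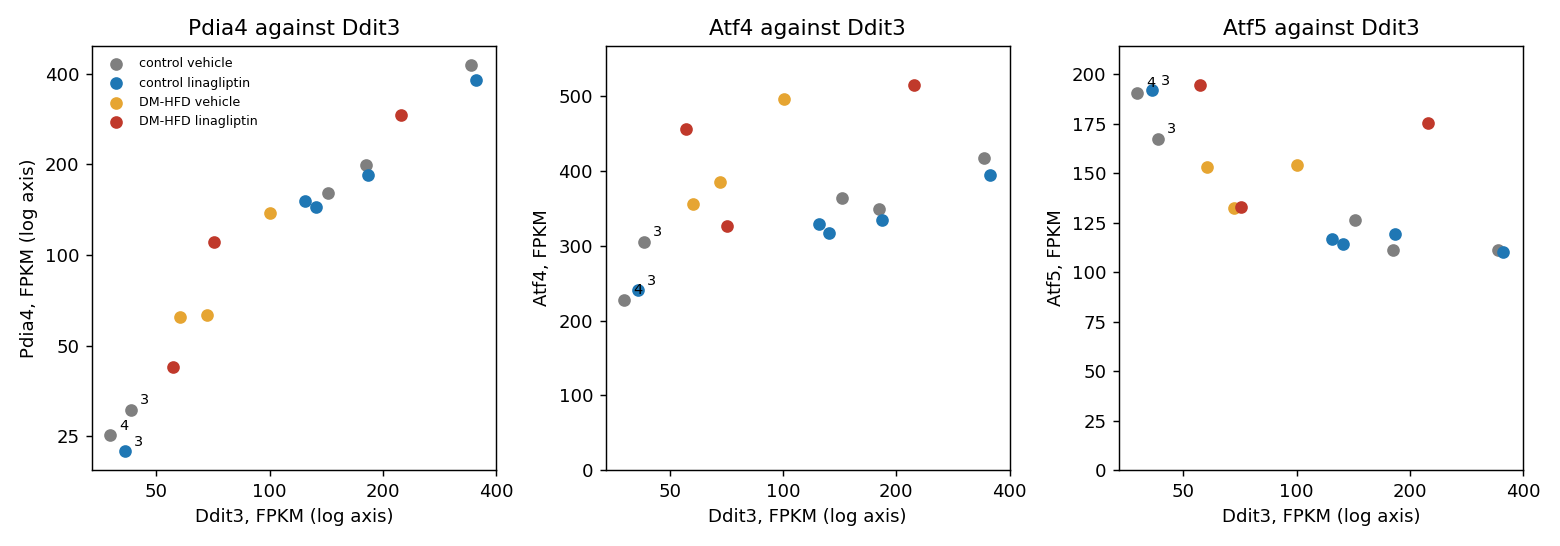
Pdia4, Atf4 and Atf5 against Ddit3 in the 16 libraries, all in FPKM, with Ddit3 and Pdia4 on log axes and the replicate number beside the 3 control libraries that stood apart. Those 3 libraries have Ddit3 at 37.8 to 42.8 FPKM with Pdia4 at 22.3 to 30.6 and Atf5 at 167 to 192.

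The genes most like Psat1 within conditions, among 10046 with a mean of at least 1 FPKM, were Yif1a (r of 0.89), Ppp4c (0.89), Dgcr6 (0.89), Tmbim6 (0.88) and Ubxn6 (0.87) over the 16 libraries. None of the members was among these 5. For Asns the nearest gene was Csf1r, a receptor that marks macrophages, at 0.95. Csf1r was 1.65, 6.18 and 4.72 FPKM in DM-HFD cells with linagliptin and 3.41, 2.27 and 3.90 with vehicle, and both groups ran in the same order of libraries as Asns. In the same 6 libraries the summed macrophage markers were 67.7, 276 and 168 FPKM with linagliptin and 156, 72.0 and 154 with vehicle. Thus the library lowest in Asns was also lowest in these markers and the library highest in Asns was highest, and the part of such cells in the values of Asns, Phgdh or Psat1 was not tested.

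Transcript values split most members into 1 dominant form. Psat1-201 carried Psat1, at 24.2, 56.3 and 62.9 FPKM in DM-HFD cells with linagliptin and 13.9, 24.0 and 24.7 with vehicle. In control cells it was 13.9 to 16.6 FPKM in 9 of the 10 libraries and 30.8 in vehicle replicate 5. Psat1-205 stayed at 3.84 FPKM or below in all libraries. Phgdh, Trib3 and Atf4 had 1 transcript each, and Shmt2-201, Mthfd2-201, Atf5-201 and Ddit3-201 were the main forms of their genes. Gene values were not the sum of these transcripts, the ratio of the gene value to the sum being 0.273 to 0.360 for Psph, 0.653 to 0.949 for Psat1 and 1 for Atf4. The highest ratio of Psat1 was that of control vehicle replicate 1, so the gene value of 15.4 FPKM stood above most control libraries where Psat1-201, at 16.2 FPKM, did not stand apart.

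Asns had 2 transcripts that replaced each other from library to library. Asns-201 (2001 bases) and Asns-202 (2016 bases) end at the same position and differ at the start, Asns-201 beginning at position 7693254 and Asns-202 at 7692871 of chromosome 6. In 7 of the 16 libraries Asns-201 made up over 90% of the sum of both, and in the other 9 it made up under 35%, with no library between. All 3 libraries of DM-HFD cells with linagliptin were of the first kind, as were DM-HFD vehicle replicate 2, control vehicle replicate 2 and control linagliptin replicates 3 and 5. In control cells with vehicle the sum was nevertheless level, 34.5 to 38.7 FPKM in all 5 libraries. The values hold no read counts, so how many reads told the forms apart is not given in the sources used here. Psph-202 behaved alike, listed at 0 in all 5 control vehicle libraries and 4 others, and at 3.51 to 5.97 FPKM in the remaining 7.

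**Figure D5:**
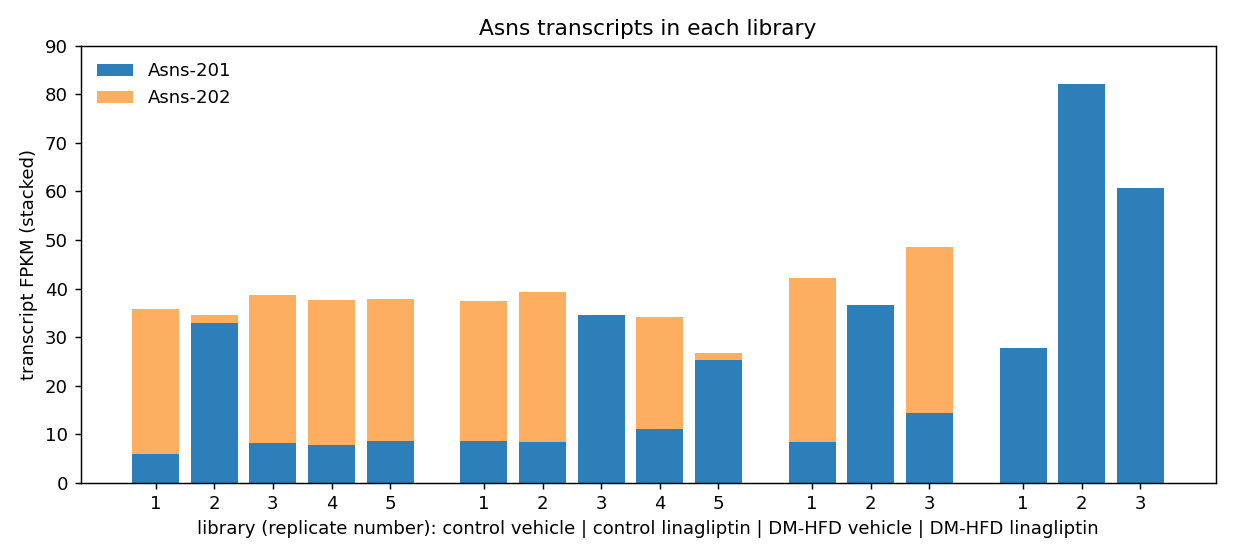
FPKM of Asns-201 (blue) and Asns-202 (orange) stacked for each of the 16 libraries. Asns-202 is at most 1.59 FPKM in 7 libraries, all 3 of DM-HFD cells with linagliptin among them, and 23.1 to 34.3 FPKM in the other 9.

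Other genes of the pathway were taken from lists chosen with earlier results of these data known, and are set against all genes tested. Under vehicle 2.91% of all genes rose (331) and 28.3% fell (3220), and under linagliptin 4.67% rose (540) and 21.9% fell (2529). Of 17 tested genes of folate one-carbon metabolism and glycine cleavage, 5 fell and 0 rose in DM-HFD against control cells under vehicle. Dld, a subunit shared by glycine cleavage and the pyruvate dehydrogenase complex, was 67.7 ± 14.8 FPKM (SD, n = 3) against 139.6 ± 8.57 (n = 5), a log2 fold change of -1.06 ± 0.15 (SE). Slc25a32, which carries folate into mitochondria, had -0.89 ± 0.12. Of 6 other scalings and trend corrections Dld passed under 6 and Slc25a32 under 4. With the trends in length and GC content removed the split became 3 higher and 1 lower. Over all 11229 genes then tested 512 were higher and 631 lower, against 331 and 3220 before, so calls changed over the whole table. In the main fit the share of the list that fell was close to that of all genes. The list median was -0.08 there, beside -0.20 for all genes. Under linagliptin 2 genes of the list rose and 4 fell.

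Among 18 tested genes of serine and glycine transport and use, 2 rose and 5 fell under vehicle. Serinc2, named for serine incorporation, was 4.42 ± 2.18 FPKM (n = 3) in DM-HFD against 0.674 ± 0.411 (n = 5) in control cells, a log2 fold change of 1.65 ± 0.26. Slc38a1, an amino acid transporter, was 0.950 ± 0.297 against 3.94 ± 1.19 FPKM, a change of -1.32 ± 0.20, and both passed under each of the 6 other scalings and trend corrections. Under vehicle the list had a median of -0.18 in the main fit, beside -0.20 for all genes. With the trends in length and GC content removed it had 3 higher and 1 lower, beside 512 and 631 of all 11229 genes. Under linagliptin it had 2 higher and 4 lower. In DM-HFD cells 1 gene of the list was past the thresholds of the study with linagliptin. This was the glycine transporter gene Slc6a9 at 14.0 ± 4.67 against 6.75 ± 3.47 FPKM. Of all genes 0 passed at an adjusted p under 0.05 in that comparison.

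Of 26 other reported targets of ATF4, 2 rose and 4 fell under vehicle, and their median log2 fold change was 0.00 beside -0.20 for all genes. Fgf21, a stress hormone gene, was 2.83 ± 0.727 FPKM in DM-HFD (n = 3) against 1.48 ± 0.362 in control cells (n = 5), a change of 0.63 ± 0.16 with a limma adjusted p of 0.0147, and it passed under 4 of the 6 other scalings and trend corrections. With the trends in length and GC content removed 1 rose and 0 fell, beside 512 and 631 of all 11229 genes. As TPM 0 rose, beside 124 of all 11619 genes. Vldlr, Cebpg and the cystine transporter gene Slc7a11 had -1.05, -0.71 and -0.67, the last of which turned to 0.13 under another scaling, and they passed under 4, 2 and 1 of the 6. Under linagliptin 2 of the 26 rose and 2 fell, with a median of 0.38 beside -0.06 for all genes. With linagliptin against vehicle 0 of the 26 were past the thresholds of the study in either kind of cell, with medians of -0.02 in control and 0.28 in DM-HFD cells.

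The last lists concern translation control and mitochondrial protein quality. Under vehicle 7 of 17 genes for eIF2, its kinases, eIF2B and its phosphatase subunits fell and 0 rose, among them Eif2ak2, the kinase PKR, at -1.19 ± 0.21, and Impact, an inhibitor of the kinase GCN2, at -0.84 ± 0.13. Of 20 cytosolic aminoacyl-tRNA synthetases 6 fell and 0 rose, led by Eprs at -0.98 ± 0.13. Of 12 mitochondrial chaperones and proteases 4 fell and 1 rose, Yme1l1 at -1.17 ± 0.13, Hspd1 at -0.79 ± 0.13 and Htra2 at 0.72 ± 0.17. These counts stand beside 28.3% of all genes that fell under vehicle and 2.91% that rose. The medians of the 3 lists under vehicle were -0.21, -0.13 and -0.30, beside -0.20 for all genes. With the trends in length and GC content removed the numbers that fell became 0 of 17, 1 of 20 and 2 of 12. Over all genes the number that fell dropped as well, from 3220 to 631 of the 11229 then tested. Eprs, Yme1l1 and Hspd1 passed under each of the 6 other scalings and trend corrections, Eif2ak2 and Htra2 under 5 and Impact under 4. Between DM-HFD and control cells under linagliptin 1 of the 17 rose and 6 fell. Of the 20 synthetases 3 rose and 4 fell, and of the 12 chaperones and proteases 2 rose and 3 fell. Over all genes 4.67% rose and 21.9% fell there. The medians of the 3 lists were -0.01, 0.20 and 0.12, beside -0.06 for all genes. In linagliptin against vehicle 0 genes of these 3 lists were past the thresholds of the study in either kind of cell.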

How the data were processed

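RNA of 16 libraries from cultured adult mouse cardiomyocytes was measured by the authors with stranded poly(A) RNA sequencing. Per the study's methods and the submitters' processing notes, reads were checked with FastQC 0.11.7, trimmed with cutadapt, aligned with HISAT2 2.1.0 to GRCm38, assembled with StringTie 1.3.3 and summarised with Ballgown. The authors deposited FPKM per gene (11631) and per transcript (23055), with no read counts. The paper states a sequencing depth for the study as a whole, but the depth reached by each library is unknown. FPKM differences can follow transcript length, GC content and the composition of each library. Whether counting used strand is not given in the sources used here. All columns of values matched a labelled sample, and no pair of libraries was identical.

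Groups came from the sample labels. Each pair of groups was tested with limma 3.58.1 in R 4.3.3 (moderated test with a mean trend, two-sided) on log2(FPKM + 1), so changes of low genes are understated. Genes needed a mean of 0.5 FPKM in a compared group, p-values were adjusted by Benjamini-Hochberg over all genes tested, and calls were made at an adjusted p under 0.05 or at the thresholds of the study. The labels do not say that libraries came from separate mice, so p-values measure the spread between libraries, which may be technical. The steps were tested on simulated data with known changes.

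The members and the gene lists were chosen with earlier results of these data known. Since Psat1 in DM-HFD cells with linagliptin drew the choice, no test is given for any member in that comparison or in the difference of responses, nor for Psat1 in the other comparison that holds the same libraries, for which a test had been planned. All members are named, and of the other lists up to 4 genes with the largest change among those passing under vehicle, or up to 3 past the thresholds of the study elsewhere. Genes most like a member were ranked by Pearson r over the 16 libraries after subtracting condition means, a rule set for Psat1 and extended to the other members after their values were seen. Alternatives varied the pseudocount, filter, scaling, model, trend removal and libraries. Promoter sequences are from RefSeq on GRCm38.p6, where all 10 members matched. Gene positions and overlaps are those of the deposited tables and GENCODE M21.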

Additional observations from a re-analysis of the deposited data

Results flagged for a closer look

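Among 55 groups of 4 or more libraries of member genes and transcripts, 6 held a library far from the rest. Chance gives about 1 in 20 groups where groups are independent and values normal. These groups are not independent, since a gene and its own transcripts are counted separately, so that rate is no measure of the 6. Atf5 was 192 FPKM in control linagliptin replicate 3 against 110 to 119 FPKM in the other 4 libraries of its group, and its main transcript Atf5-201 was 206 against 118 to 126 FPKM. Psat1-201 was 30.8 FPKM in control vehicle replicate 5 against 13.9 to 16.2 in the other 4. Asns-201 was 32.9 FPKM in control vehicle replicate 2 against 5.96 to 8.51, and Asns-202 was 1.59 FPKM in the same library against 29.2 to 30.5. Atf5-203, a minor form, was 2.02 FPKM in control vehicle replicate 1 against 0.550 to 0.844 FPKM. The causes were not tested.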

How the results depend on the processing

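FPKM hold no counts, so no value has a counting error, and 3 libraries per DM-HFD group limit every comparison; the causes of the changes below were not tested. Under vehicle 0 members were called at first. Median-of-ratios scaling gave 2, and TPM, quantile scaling and GC trend removal gave 1 each. Leaving out the control libraries that stood apart gave 2, in which the libraries left out were the extreme ones of their group. GC trend removal and leaving out those libraries were chosen after seeing the data. Of the 9 members tested under linagliptin, quantile scaling and leaving out those control libraries gave 1 each, and leaving out single libraries 0 to 6. All genes called moved from 3551 under vehicle to 5478 (TPM), 1 (Ballgown model), 1143 (length and GC trends removed) and 1591 (GC trend removed), with 2531 to 3712 when single libraries were left out. Under linagliptin they moved from 3069 to 1 (Ballgown model), 1849 (no moderation), 490 (library weights), 571 (both trends) and 809 (GC trend), and from 106 to 5796 when single libraries were left out. At the thresholds of the study linagliptin called 25 genes in control cells, and 75 and 84 with pseudocounts of 0.1 and 0.01, 61 as TPM, 73 from summed transcripts, 15 with the Ballgown model, 39 with library weights and 53 without the control libraries that stood apart, with 24 to 53 when single libraries were left out (53 without control linagliptin replicate 3). In DM-HFD cells it called 73, and 113 and 110 with those pseudocounts, 312 as TPM, 155 from summed transcripts, 267 with the Ballgown model, 23 without moderation, 769 with library weights and 47 with the replicate block and both trends removed, with 30 (without linagliptin replicate 3) to 543 (without linagliptin replicate 1) when single libraries were left out.

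No tested member value passed at an adjusted p under 0.05 in the main fits, so every sign that turned belonged to a value that had not passed. Under vehicle TPM gave Psat1 -0.18, Psph -0.11, Shmt2 -0.13, Asns -0.062 and Atf5 -0.17, the Ballgown model Psat1 -0.94, Mthfd2 0.31 and Atf4 -0.16, median-of-ratios scaling Mthfd2 0.067 and Trib3 0.10, quantile scaling Atf5 -0.026, and leaving out the control libraries that stood apart Psat1 -0.11. Under linagliptin Mthfd2 became 0.010 (median-of-ratios), 0.24 (Ballgown model), 0.071 (library weights) and 0.00031 (GC trend removed). For linagliptin in control cells Psph became 0.083 from summed transcripts, Atf4 0.044 with the Ballgown model and Ddit3 -0.19 without the control libraries that stood apart. Leaving out single libraries gave ranges of -0.077 to 0.25 for Psat1, -0.012 to 0.22 for Shmt2 and -0.40 to 0.027 for Trib3 under vehicle, -0.24 to 0.0086 for Mthfd2 under linagliptin, and, for linagliptin in control cells, -0.16 to 0.072 for Atf4, -0.26 to 0.0021 for Atf5, -0.052 to 0.74 for Ddit3, -0.089 to 0.0045 for Psph and -0.29 to 0.050 for Trib3.

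Replicate numbers shared by vehicle and linagliptin libraries were not taken to pair them, since not every pair had r above 0.1. Deviations of libraries with the same number had r of 0.52, 0.29, 0.40, -0.33 and 0.38 in control and -0.15, -0.60 and 0.21 in DM-HFD cells, and control replicates 1, 2 and 5 and DM-HFD replicate 3 correlated best with their own number. With the replicate block and the study's limits linagliptin called 31 genes in control and 64 in DM-HFD cells, and 0 of the 10 members in control cells.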
